A study of Mus musculus with 18 samples.

Results

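The 9 genes Pax5, Ebf1, Cd79a, Cd79b, Ms4a1, Fcmr, Ly6d, Mzb1 and Bank1 mark B lymphocytes, and they were chosen by symbol from a table of 21831 gene symbols. All 9 were in the table, and all 9 passed the filter on low counts that kept 13409 genes for testing. Their transcripts were followed in 18 RNA libraries of cultured peritoneal cells that the labels call macrophages. They are transcripts of B cell genes in a preparation meant to hold another cell type, and which cells they came from was not tested.

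The cells came from C57BL/6 mice 6 weeks old of 2 genotypes. Mice called FF here have floxed alleles of PXR, a nuclear receptor that senses foreign compounds and is encoded by Nr1i2. Mice called dMye here lack PXR in myeloid cells, a lineage that does not include B cells, and no label gives the Cre line used. Mice had been given thioglycollate (1 mL at 3%) into the peritoneum 3 days earlier. Plated cells were left 4 h to adhere, and the medium then held either the rodent PXR ligand PCN at 20 µM or the solvent DMSO for 12 h. There were 3 FF DMSO, 3 FF PCN, 6 dMye DMSO and 6 dMye PCN libraries, numbered here in deposit order only as names. The labels do not say whether these came from separate animals or dishes, so the p-values describe the spread between libraries, which may be technical.

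B cells are defined by a surface antigen receptor, an immunoglobulin held in the membrane together with the signalling pair CD79A and CD79B. The transcription factors EBF1 and PAX5 switch on that programme during development and keep the cells committed to the B lineage. The mouse peritoneal cavity is known as a home of B-1 cells as well as of macrophages, and B cells adhere to culture plastic less firmly than macrophages do. Some of the 9 genes are also known outside B cells: Ebf1 in stromal and fat-forming cells, Ly6d in some epithelia, and Mzb1 in plasma cells and plasmacytoid dendritic cells.

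Promoter windows for 5 of the 9 genes, in 6 windows of 300 bases around a RefSeq start site (build GRCm38.p6), were searched on both strands for 4 short sequences that transcription factors of B cells are known to bind. Of these, 3 windows held a match. The 250 bases before the start are shown for these, the windows of Cd79a, Fcmr and Bank1. No window was available for Cd79b, Ms4a1, Ly6d and Mzb1. Capitals mark the matches, and each strand is read 5′ to 3′ in the direction of the gene.
Cd79a, chr7:24897247-24897496, plus strand: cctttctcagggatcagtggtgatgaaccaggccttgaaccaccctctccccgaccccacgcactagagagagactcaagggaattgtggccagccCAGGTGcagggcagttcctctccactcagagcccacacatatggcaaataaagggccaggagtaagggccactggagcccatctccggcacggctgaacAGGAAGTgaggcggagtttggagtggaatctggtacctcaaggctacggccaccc
Fcmr, chr1:130865527-130865776, plus strand: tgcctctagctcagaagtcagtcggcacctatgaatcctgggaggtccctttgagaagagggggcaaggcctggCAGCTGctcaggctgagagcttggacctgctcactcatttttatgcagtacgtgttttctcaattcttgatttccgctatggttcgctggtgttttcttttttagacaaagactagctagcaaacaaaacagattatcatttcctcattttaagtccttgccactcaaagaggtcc
Bank1, chr3:136326067-136326316, minus strand: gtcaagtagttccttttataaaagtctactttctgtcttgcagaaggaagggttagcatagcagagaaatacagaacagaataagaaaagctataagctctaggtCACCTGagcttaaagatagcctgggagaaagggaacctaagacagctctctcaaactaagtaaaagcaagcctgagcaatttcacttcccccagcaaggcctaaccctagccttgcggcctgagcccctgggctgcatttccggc

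The window of Cd79a held the ETS core AGGAAGT at bases -55 to -49 from the start and an E-box of the form CAGNTG at -154 to -149. In Bank1 the E-box lay on the opposite strand, at -145 to -140. The Fcmr window held E-boxes at 3 places, of which 1 lies before the start (CAGCTG, which reads the same on both strands, at -176 to -171) and 2 after it. Neither the EBF palindrome TCCCNNGGGA nor the octamer ATGCAAAT was in any of the 6 windows, and the Pax5 window and both Ebf1 windows held no match. Among all 32851 promoter windows of that length, 51.4% held the E-box, 9.35% the ETS core, 1.74% the octamer and 0.904% the palindrome. A match is a description of letters and says nothing of binding.

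Library totals ran from 21993697 to 30228017 expected counts, and the 9 genes together took 171 to 740 counts of each. Levels are given as CPM, counts divided by the library total and scaled in the usual way. Nr1i2 cannot check the genotypes, since its counts summed to 2, 1, 2 and 3 in FF DMSO, FF PCN, dMye DMSO and dMye PCN. The labelled cell type was checked on 18 macrophage markers, which summed to between 8748 and 13858 CPM. The 4 Y-linked genes summed to 113 to 137 CPM in FF and to 0.463 to 1.49 CPM in dMye libraries, so the genotypes differ in sex and the 2 cannot be told apart. Mesothelial and fibroblast markers summed to 155 to 195 CPM in FF and to 668 to 854 CPM in dMye, and all 14 of them were higher in dMye under both agents. By the same edgeR test, given below, 1869 of all 13409 tested genes were higher in dMye under DMSO and 2176 under PCN.

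Summed over the 9 genes, the B cell gene level was highest in the FF DMSO libraries, at 28.1, 22.3 and 26.9 CPM. PCN libraries of the same genotype held 15.1, 10.1 and 13.6 CPM. In dMye the sum ran from 6.26 to 9.78 CPM under DMSO (median 8.87) and from 7.23 to 10.1 CPM under PCN (median 8.82). The FF groups did not overlap each other, whereas the dMye groups overlapped almost wholly. The ratio of PCN to DMSO means was 0.503 in FF and 1.00 in dMye, and the ratio of dMye to FF was 0.334 under DMSO and 0.667 under PCN. No test was run on the sum. In bulk RNA, fewer B cells, less RNA per B cell and a part from other cells cannot be told apart.

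**Figure D1:**
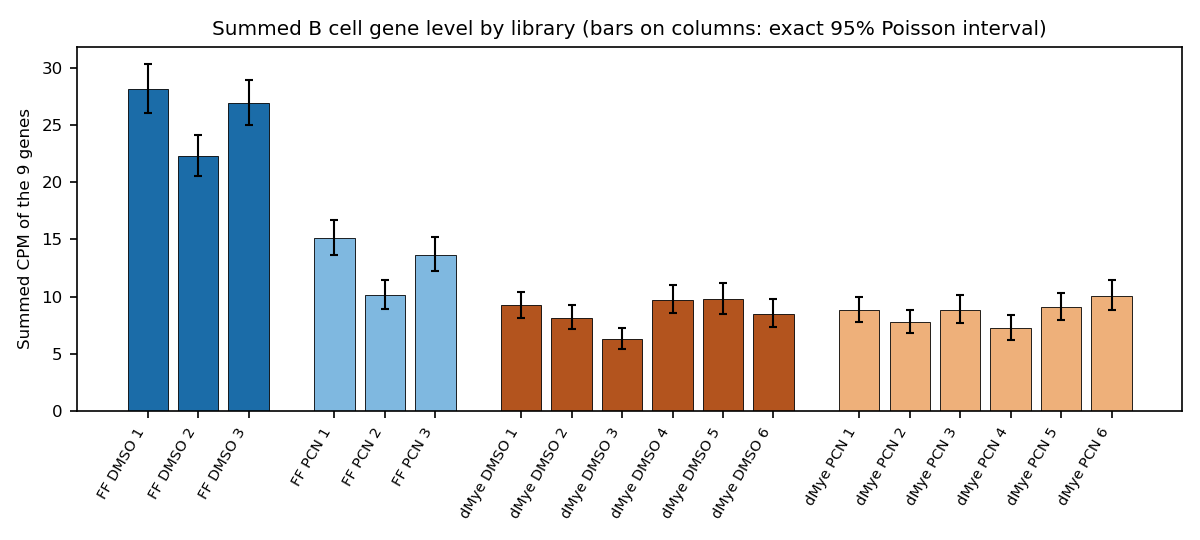
Each column is the summed CPM of the 9 B cell genes in 1 library, coloured by group, and the bars show the exact 95% Poisson interval, which covers counting error only. The 3 FF DMSO libraries sit between 22.3 and 28.1 CPM, above the 3 FF PCN libraries at 10.1 to 15.1 CPM, and all 12 dMye libraries sit between 6.26 and 10.1 CPM.

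All 9 genes had their highest group mean in FF DMSO. For 6 of them, every FF DMSO library lay above all 15 other libraries, a pattern shown by 1.82% of all tested genes; the exceptions were Ebf1, Ly6d and Bank1. Per kilobase of exon, Cd79a stood highest in FF DMSO at 4.07 ± 0.446 CPM per kb (SD, n = 3), although its libraries overlapped those of Ly6d. Ly6d (2.66 ± 1.56), Cd79b (2.36 ± 0.448), Fcmr (1.92 ± 0.380) and Mzb1 (1.89 ± 0.171) followed in CPM per kb, and neighbours among these did not differ beyond their spread. Ms4a1 at 0.553 ± 0.0698 and Bank1 at 0.341 ± 0.101 CPM per kb came next, with no overlap between them. The transcription factors Pax5 (0.179 ± 0.0693) and Ebf1 (0.133 ± 0.0187) were lowest in CPM per kb, and here Pax5 overlapped both Bank1 and Ebf1. Cd79a was also first per kilobase in the other 3 groups, and Cd79b second.

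**Figure D2:**
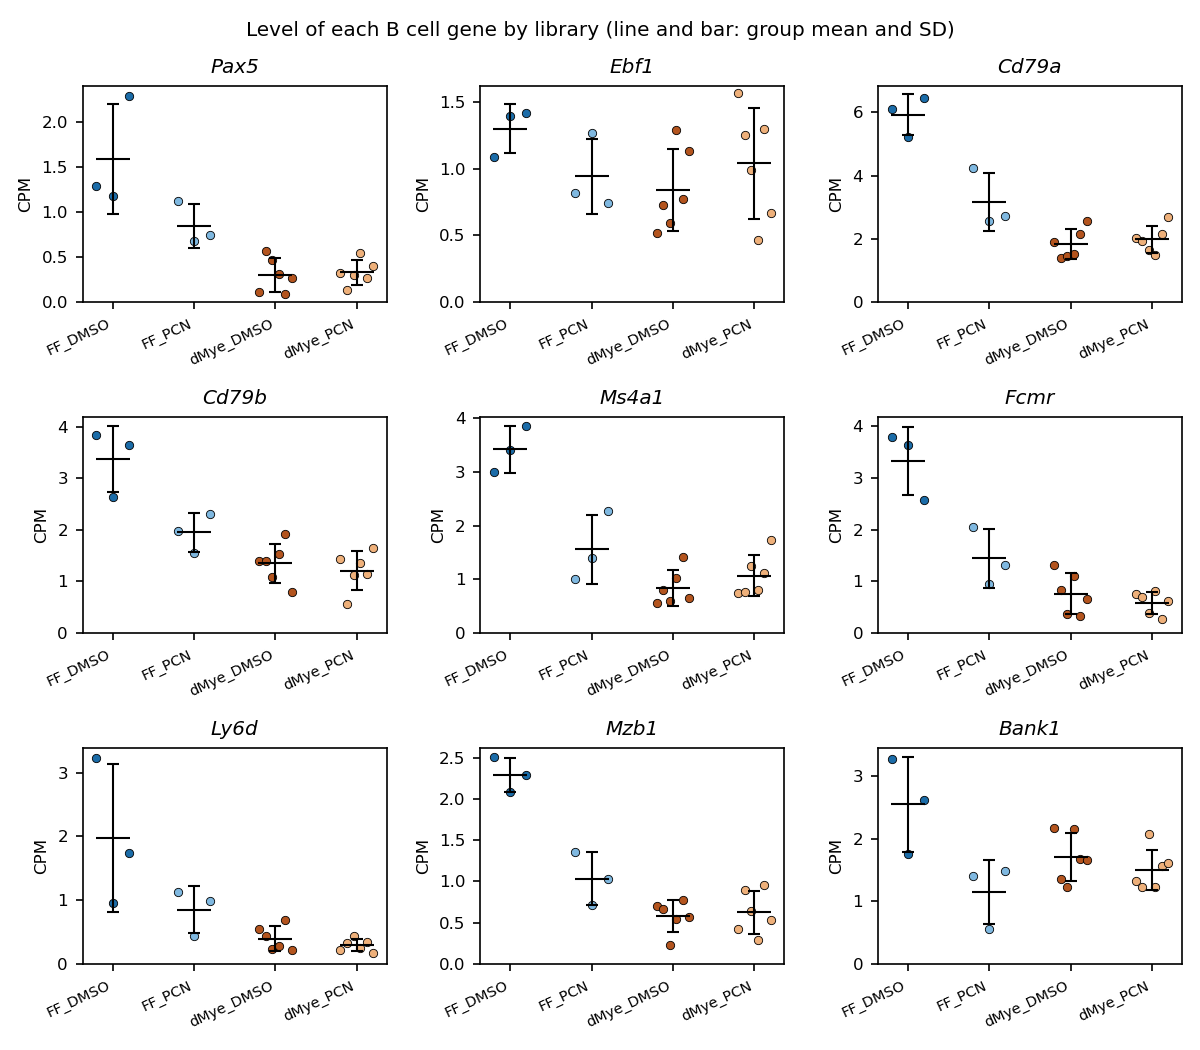
Each panel shows 1 gene, with its level in CPM on the vertical axis, a point for each library, and a line with a bar for the group mean and SD. Cd79a, Cd79b, Ms4a1, Fcmr, Mzb1 and Pax5 have all FF DMSO points above all others, and the dMye PCN points overlap those of FF PCN for 6 of the 9 genes, Cd79a, Cd79b, Ms4a1, Mzb1, Ebf1 and Bank1.

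PCN in FF cells was associated with lower levels of the B cell genes. Of the 9 genes, 3 (Cd79a, Ms4a1 and Bank1) fell by the test across all genes (edgeR's quasi-likelihood test with Benjamini-Hochberg adjustment, called at an adjusted p under 0.05). Over all tested genes 6.98% were called lower. The other 6 also had negative log2 fold changes without passing, and the median over the 9 was -1.11 beside 0.01 over all genes. For 7 of the 9 the FF PCN libraries lay wholly below the FF DMSO libraries, as did 18.2% of all genes. At unadjusted p under 0.05 there were 7 of the 9 genes, beside 26.5% of all genes. Among the 1838 tested genes with mean levels in the range of the 9 (0.615 to 2.79 CPM as a mean over all 18 libraries), 3.48% were called lower.

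Among the receptor components, Cd79a (chr7:24897381-24902197, plus strand) encodes the CD79A chain. Its level was 6.10, 5.21 and 6.47 CPM in FF DMSO and 4.24, 2.58 and 2.73 CPM in FF PCN, with no overlap. It fell by 0.87 ± 0.24 (SE) on the log2 scale, with an edgeR adjusted p of 0.015. Its partner Cd79b (chr11:106311341-106314762, minus strand) read 3.84, 2.64 and 3.64 CPM under DMSO and 1.98, 1.55 and 2.31 CPM under PCN. The Cd79b libraries were apart as well, but its log2 fold change of -0.77 ± 0.31 did not pass (edgeR adjusted p = 0.11). The count ratio of Cd79a to Cd79b, pooled over libraries, was 1.76 in FF DMSO and 1.64 in FF PCN.

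Ms4a1 (chr19:11249675-11266241, minus strand) encodes CD20, a membrane protein of mature B cells. It went from 2.99, 3.41 and 3.85 CPM to 1.01, 1.39 and 2.27 CPM, and the fall of 1.11 ± 0.36 on the log2 scale passed (edgeR adjusted p = 0.040). Fcmr (chr1:130865669-130880791, plus strand), the Fc receptor for IgM, read 3.80, 3.63 and 2.58 CPM under DMSO and 2.06, 0.951 and 1.32 CPM under PCN. These libraries did not overlap either, and its value of -1.18 ± 0.41 just missed the threshold (edgeR adjusted p = 0.058). Ly6d (chr15:74762056-74763620, minus strand), a surface protein of B-committed lymphoid progenitors and later B cells, varied most between FF DMSO libraries, at 3.23, 0.954 and 1.75 CPM. Its FF PCN values of 1.13, 0.436 and 0.991 CPM overlapped them (log2 fold change -1.18 ± 0.47, edgeR adjusted p = 0.10).

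Bank1 (chr3:136053363-136326066, minus strand) encodes a scaffold that links the B cell receptor to calcium release. It measured 3.27, 1.76 and 2.62 CPM under DMSO and 1.40, 0.555 and 1.49 CPM under PCN, with no overlap and a fall of 1.13 ± 0.33 on the log2 scale (edgeR adjusted p = 0.024). Mzb1 (chromosome 18, inside the annotated span of Spata24), an endoplasmic reticulum protein that helps assemble IgM, read 2.51, 2.09 and 2.29 CPM and then 1.36, 0.714 and 1.03 CPM. The Mzb1 libraries were apart, with a log2 fold change of -1.12 ± 0.39 that did not pass (edgeR adjusted p = 0.061).

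The 2 transcription factors had the largest p of the 9 genes for PCN in FF. Pax5 (chr4:44524757-44710487, minus strand) was at 1.29, 1.17 and 2.29 CPM under DMSO and at 1.13, 0.674 and 0.743 CPM under PCN. Its libraries did not overlap, though the log2 fold change of -0.88 ± 0.48 did not pass (edgeR adjusted p = 0.26). Ebf1 (chr11:44617317-45008091, plus strand) had the smallest shift, from 1.09, 1.39 and 1.42 CPM to 0.816, 1.27 and 0.743 CPM. Those values overlapped, with -0.44 ± 0.41 on the log2 scale (edgeR adjusted p = 0.55).

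Leaving out any 1 of the 6 FF libraries ended at least 1 of the 3 calls in FF. Cd79a no longer passed without FF DMSO 3, FF PCN 2 or FF PCN 3 (edgeR adjusted p of 0.060, 0.082 and 0.071). Bank1 was lost without FF DMSO 1, FF DMSO 3 or FF PCN 2 (0.13, 0.063 and 0.13), and Ms4a1 without FF DMSO 1, 2 or 3 or FF PCN 1 or 2 (0.061, 0.087, 0.12, 0.16 and 0.12). All 9 log2 fold changes stayed negative in each of these fits, and the calls over all genes also dropped, from 1851 to between 1201 and 1437. The ratio of summed levels moved less, between 0.461 and 0.558.

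In dMye cells the same agent left no gene of the 9 called by edgeR, none at unadjusted p under 0.05 (15.1% of all genes), and none by DESeq2 or limma-voom; 2.08% of all genes were called there. Cd79a ran from 1.39 to 2.57 CPM under DMSO (median 1.72) and from 1.48 to 2.67 CPM under PCN (median 1.97). The Cd79a log2 fold change of 0.12 had a 95% interval of -0.24 to 0.48. Ms4a1, at 0.551 to 1.41 CPM under DMSO (median 0.725) and 0.748 to 1.74 CPM under PCN (median 0.956), gave 0.35 with an interval of -0.21 to 0.90. Bank1, at 1.23 to 2.17 CPM (median 1.67) and 1.22 to 2.07 CPM (median 1.44), gave -0.19 with an interval of -0.64 to 0.27. The groups overlapped for all 9 genes (over all genes, 1.31% lay wholly lower and 1.03% wholly higher), whose log2 fold changes lay between -0.43 for Ly6d and 0.35 for Ms4a1.

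The difference between the PCN effects (dMye minus FF) was positive for all 9 genes, from 0.60 for Cd79b to 1.46 for Ms4a1 on the log2 scale, but none passed in edgeR. Over all genes 1.42% were called. At unadjusted p under 0.05 there were 4 of the 9 genes, beside 12.9% of all genes. Cd79a differed by 1.00 ± 0.30 (edgeR adjusted p = 0.11), Ms4a1 by 1.46 ± 0.46 (0.12), Mzb1 by 1.25 ± 0.50 (0.27) and Bank1 by 0.94 ± 0.40 (0.32). DESeq2 called Cd79a (adjusted p = 0.042) and Ms4a1 (0.049), limma-voom called none, and edgeR called Ms4a1 once dMye DMSO 5 was left out (0.041). The FF effect was therefore not shown by edgeR to differ between genotypes.

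**Figure D3:**
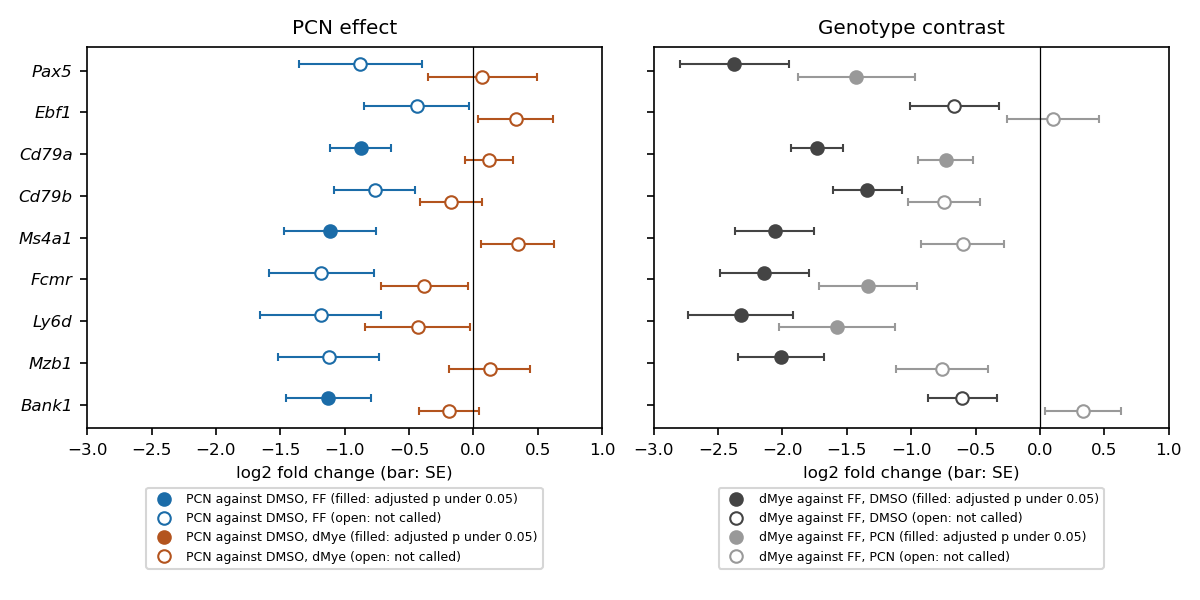
Points give each gene's log2 fold change with its SE as a bar, at left for PCN against DMSO in FF and dMye and at right for dMye against FF under DMSO and PCN; filled points have an adjusted p under 0.05 and open points do not. In FF all 9 PCN values lie below 0 and in dMye they lie between -0.43 and 0.35, while at right Ebf1 and Bank1 stand nearest 0.

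Under DMSO, dMye libraries held less of 7 of the 9 transcripts than FF libraries (edgeR, adjusted p under 0.05), with 7.85% of all genes called lower. The 7 genes whose libraries were wholly apart were these same 7, a pattern of 6.26% of all genes in that direction. Pax5 fell by 2.37 ± 0.43 on the log2 scale (edgeR adjusted p = 0.00024), from a mean of 1.59 CPM to one of 0.300 CPM, with 2 to 17 counts per dMye DMSO library. Ly6d fell by 2.32 ± 0.41 (0.00019), from a mean of 1.98 to 0.398 CPM, and Fcmr by 2.14 ± 0.35 (7.8e-05), from 3.34 to 0.764 CPM. Falls on the log2 scale were 2.06 ± 0.31 for Ms4a1 and 2.01 ± 0.34 for Mzb1. Those of the receptor chains were smaller, 1.73 ± 0.20 for Cd79a and 1.34 ± 0.27 for Cd79b.

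Ebf1 and Bank1 did not pass in that comparison. Ebf1 was at 0.514 to 1.29 CPM in dMye DMSO (median 0.751), overlapping FF DMSO, with -0.67 ± 0.35 on the log2 scale (edgeR adjusted p = 0.18). Bank1 gave -0.60 ± 0.27 (edgeR adjusted p = 0.12) with overlapping libraries. Stromal cells are known to express Ebf1, and the mesothelial and fibroblast markers given above were higher in dMye. The part of these cells in the Ebf1 values was not tested, nor was that of sex in any genotype contrast.

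Under PCN, 4 of the 9 genes were lower in dMye (edgeR), with 11.4% of all genes called lower, and 3 had libraries apart beside 7.58%. Ly6d differed by -1.57 ± 0.45 (edgeR adjusted p = 0.012), Pax5 by -1.43 ± 0.45 (0.022), Fcmr by -1.34 ± 0.38 (0.011) and Cd79a by -0.73 ± 0.21 (0.013). Bank1 had a positive value of 0.33 ± 0.30 and Ebf1 one of 0.10 ± 0.36, neither called (edgeR adjusted p = 0.44 and 0.87). All 4 calls were lost without FF PCN 1, with adjusted p from 0.077 to 0.16, and that of Ly6d also without FF PCN 3 (0.0501). Both genotype contrasts share their FF or dMye libraries with the PCN comparisons, so they are not separate evidence for the same levels.

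The mix of the 9 transcripts also differed between genotypes, seen after the values were known and given without a test. Bank1 made up 7.91% to 11.6% of the summed count in FF DMSO and 5.49% to 10.9% in FF PCN. In dMye its share was 16.7% to 23.5% under DMSO and 15.0% to 23.4% under PCN, above every FF library. The pooled ratio of Bank1 to Cd79a counts was 0.427 and 0.358 in FF DMSO and FF PCN against 0.944 and 0.750 in dMye DMSO and dMye PCN. Ebf1 counts stood to Pax5 counts as 0.819 and 1.11 in the FF groups and as 2.60 and 3.37 in the dMye groups, on 49 or 50 Pax5 counts in each of the latter. Cd79a, in contrast, kept a median share between 21.3% and 25.5% in all 4 groups.

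**Figure D4:**
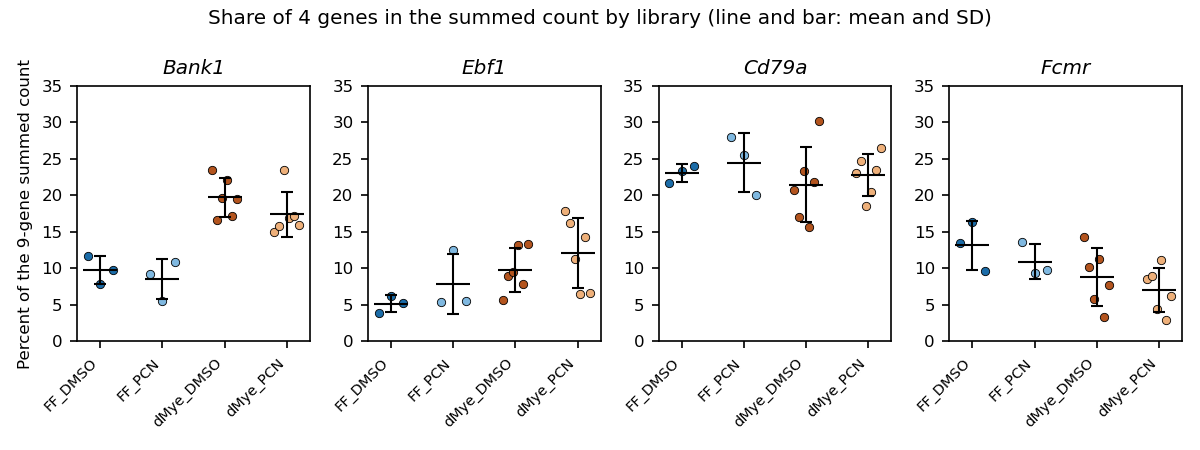
The panels show the percent of the 9-gene summed count taken by Bank1, Ebf1, Cd79a and Fcmr in each library, with the group mean and SD. Bank1 takes at most 11.6% in FF libraries and at least 15.0% in dMye libraries, while the Cd79a shares of all groups overlap.

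As a whole list, other B cell genes gave a mixed picture. Of 23 tested, 2 fell with PCN in FF, among them Tnfrsf13b, a receptor for the survival factors BAFF and APRIL, by 0.48 ± 0.10 on the log2 scale (edgeR adjusted p = 0.0032). Bcl11a, a transcription factor, and Blnk, an adaptor, rose by 0.41 ± 0.12 (0.024) and 0.18 ± 0.06 (0.044). Over all 13409 tested genes, 936 fell and 915 rose. The list's median was -0.26, and its genes with the highest CPM were Cd37 (group means of 190 to 203 CPM) and Blnk (111 to 128 CPM). In dMye the median of the list was -0.05. A split of the list at 3 CPM in FF DMSO was chosen after the values were seen. Of the 16 genes under 3 CPM, 14 had negative values for PCN in FF (median -0.62), with 1 called lower and 0 higher. Of the 7 genes over it, 3 were negative (median 0.06), with 1 called lower and 2 higher.

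Between genotypes under DMSO, 9 of those 23 genes were lower in dMye and 1, Cd55, was higher, beside 1052 and 1869 of all 13409 genes. Among those with the smallest p were Spib (log2 fold change -1.57 ± 0.24, edgeR adjusted p = 4.2e-05), Blk (-1.57 ± 0.29) and H2-Ob (-1.84 ± 0.36). Spib is a transcription factor, Blk a receptor-proximal kinase and H2-Ob a subunit of the class II modulator of B cells. Under PCN, 5 of the 23 were lower in dMye and 1 was higher, beside 1526 and 2176 of all 13409 genes. Of the 16 genes under 3 CPM, 8 were called lower in dMye under DMSO and 1 higher (median -1.21). Of the 7 over it, 1 was called lower and 0 higher (median -0.14). Under PCN these medians were -0.60 and -0.11.

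Among genes known in B cell receptor signalling, PCN in FF went with changes in both directions. Of 25 signalling genes, 7 fell and 3 rose, beside 936 and 915 of all 13409 tested genes. The phosphatase gene Ptpn6 fell by 0.77 ± 0.08 on the log2 scale (edgeR adjusted p = 1.3e-06) and the kinase subunit gene Pik3cd by 0.58 ± 0.08, whereas Vav1 rose by 0.30 ± 0.05. Ptpn6 also fell with PCN in dMye, by 0.39 ± 0.06 (edgeR adjusted p = 0.00051). It was the 1 of the 25 called there, beside 2.08% of all genes. Mean levels in FF DMSO were 152 CPM for Ptpn6, 54.0 CPM for Pik3cd and 167 CPM for Vav1, beside 5.93 CPM for Cd79a. Which cells these transcripts came from was not tested. Syk, the kinase recruited to CD79A and CD79B, had a mean of 561 CPM over groups and a log2 fold change of 0.08 that was not called. Of 15 B lineage transcription factors other than Pax5 and Ebf1, 4 fell (Ikzf1, Pou2f2, Prdm1 and Irf4, by 0.46 to 1.18) and 1, Bcl11a, rose. The 4 that fell are also known in myeloid cells, and no value here tells the cell types apart.

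Lists for other cell types moved in part with the B cell genes. MHC class II genes, which B cells, macrophages and dendritic cells share, summed to 567 to 647 CPM in FF DMSO, 381 to 445 in FF PCN, 406 to 449 in dMye DMSO and 361 to 400 CPM in dMye PCN; 6 of 11 fell with PCN in FF and 9 of 11 were lower in dMye under DMSO. Macrophage markers summed to 13174 to 13858 CPM in FF DMSO and to 10349 to 10888 CPM in FF PCN, and 7 of 18 fell while 1 rose. In dMye they summed to 8954.5 to 10921 CPM under DMSO and to 8748 to 9422 CPM under PCN. Of the 18, 3 were lower and 9 higher in dMye under DMSO, and 2 and 14 under PCN. Over all 13409 tested genes, 1869 were higher in dMye under DMSO and 2176 under PCN. The 14 tested T cell markers, for another lymphocyte of the cavity, had a median of -0.01 for PCN in FF, while 11 of 14 were lower in dMye under DMSO and 7 of 14 under PCN. Over all genes, 6.98% fell with PCN in FF, and 7.85% were lower in dMye under DMSO and 11.4% under PCN. Thy1 showed the smallest p of the T cell list in FF, at -0.47 ± 0.35 (edgeR adjusted p = 0.44). Mitochondrial transcripts took 1.81% to 2.02% of FF DMSO and 1.46% to 1.72% of FF PCN counts. The part of these shifts in the B cell result was not tested.

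**Figure D5:**
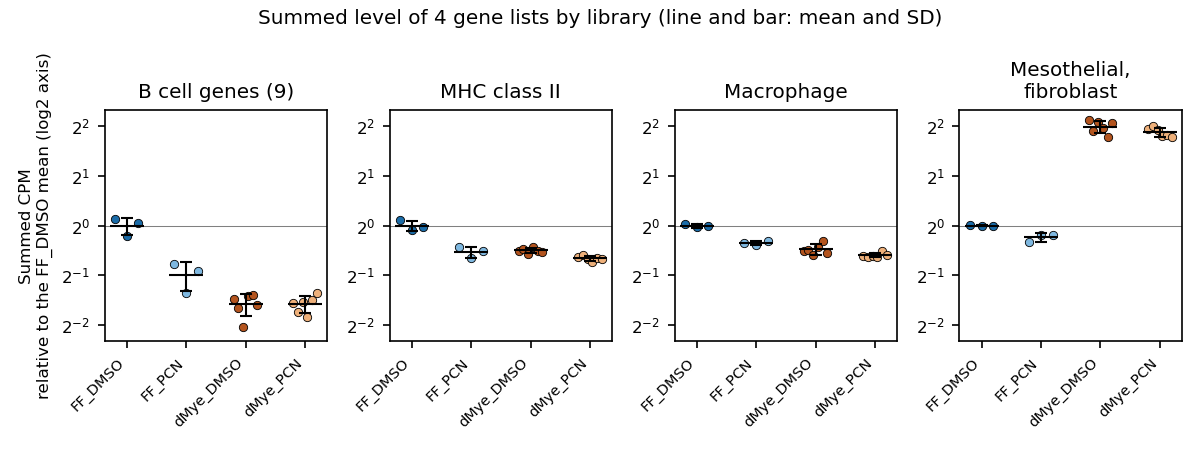
Points show the summed CPM of a gene list in each library, relative to the FF DMSO mean, on a log2 axis, with the group mean and SD. In FF PCN the 9 B cell genes sit lower than the MHC class II or macrophage lists, and the mesothelial and fibroblast list stands above the FF level in dMye only.

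Lists for the other cells that use Mzb1 held both abundant and scarce genes. The 8 plasmacytoid dendritic cell markers summed to 122 to 127 CPM in FF DMSO, 106 to 121 in FF PCN, 126 to 153 in dMye DMSO and 116 to 140 CPM in dMye PCN, and 1 of the 5 tested, Tcf4, fell with PCN in FF. Most of that sum came from Bst2, Cox6a2 and Tcf4 (means over groups of 58.7, 35.1 and 15.5 CPM), while Klk1 and Siglech had group means of at most 0.0152 and 0.115 CPM. The 8 plasma cell genes in the table summed to 199 to 216 CPM in FF DMSO, 165 to 182 in FF PCN, 163 to 198 in dMye DMSO and 140 to 166 CPM in dMye PCN, and 2 of the 6 tested, Prdm1 and Irf4, fell with PCN in FF. Xbp1, Sdc1 and Prdm1 had the highest means over groups (96.6, 69.4 and 6.07 CPM), the immunoglobulin-joining gene Jchain had group means between 0.176 and 0.402 CPM, and the receptor gene Tnfrsf17 of at most 0.0137 CPM. Over all tested genes, 6.98% were called lower with PCN in FF. The part of plasma cells and plasmacytoid dendritic cells in the Mzb1 values was not tested.

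Within groups, the 9 genes did not follow one another from library to library. Over 36 pairs, Pearson's r of deviations from the group means across 18 libraries had a median of 0.07 and ran from -0.50 to 0.67, with 23 pairs positive. Without removing group means the median was 0.66. The points share libraries and depth, and the Poisson counting error alone was 7.98% of the mean for Cd79a in FF DMSO and 34.6% for Pax5 in dMye DMSO. The 5 genes most like the sum in those deviations were Hnrnpc (r = 0.85), Arl6ip5 (0.84), Cd200r1 (0.83), Mettl22 (0.82) and Pla2g7 (0.82). For Cd79a they were Homer2, Mad2l1 and H2-Oa (0.79 to 0.84), and for Bank1 Cd8b1, Zfp956 and Arglu1 (0.84 to 0.86). By level rather than deviation, an order looked at after the values were seen, the class II gene H2-Eb1 came first at 0.96, then Mmp8 and H2-Aa at 0.94.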

How the data were processed

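The authors deposited expected counts, which are estimated read counts per gene symbol in 1 table of 18 libraries, from total RNA isolated with TRIzol. The submitters' processing notes name build mm10. Aligner, quantifier, annotation and strandedness: not given in the sources used here, so reads of overlapping genes cannot be told apart. Expected counts were rounded, and filterByExpr kept 13409 genes. One edgeR 4.0.16 quasi-likelihood fit (R 4.3.3, TMM scaling, robust, 4 groups, no covariates) gave all contrasts, with Benjamini-Hochberg adjustment over all genes, and was tested on simulated data. The simulated data gave every gene the same spread between libraries, below the 18.0% to 37.3% fitted for the 9 genes. They therefore do not check the fit for genes as variable as these. The SE is the log2 fold change divided by the root of its F statistic, and the 95% intervals use that SE. CPM uses unscaled library totals, and 3 counts (0.0993 to 0.136 CPM) is the limit a count of 0 allows. Gene positions and exon lengths come from GENCODE M21 (GRCm38) by symbol, and promoter windows from RefSeq. Replicates were not merged, since no pair agreed within sampling noise (chi-square per gene 3.75 to 43.7). The members and gene lists were chosen with earlier results of these data known. Named genes are the 9, up to 4 of each other list by smallest p and 3 by level, and the closest by correlation. Some genes that the rule names, and an allele that all 4 groups share, are not reported here, though list counts include those genes. DESeq2 1.42.0 and limma 3.58.1 were alternatives, with other scalings, filters, fits of only the compared groups, and each library left out.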

Additional observations from a re-analysis of the deposited data

How the results depend on the processing

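The alternatives were run for the 9 genes and their sum. No paired analysis was possible because the labels give no replicate numbers shared between groups. For PCN in FF, the count of 3 called genes became 5 with DESeq2, 5 with limma-voom and 6 with only the compared groups in the fit, and ranged from 0 to 3 when 1 library was left out. Without FF DMSO 1 the count was 1, and without FF DMSO 3 or FF PCN 2 it was 0. A stricter filter (1 CPM in at least 6 libraries) kept 6 of the 9 genes, and 4 of these were called in FF. The difference between the PCN effects had 2 calls with DESeq2 and 0 to 1 with a library left out, and could not be refitted on fewer groups. For dMye against FF under DMSO the count of 7 fell to 4 with the stricter filter, which kept 6 of the 9 genes, and was 7 in every fit without 1 library. Under PCN the count of 4 ranged from 0 to 5 without 1 library. No gene was called for PCN in dMye in any of 20 alternatives. Of the 9, the stricter filter tested 6 there, and the fit of only the compared groups tested 7. Ratios of summed levels moved by less than their spread throughout. Signs turned only for uncalled values with 1 library left out: Bank1 (-0.0014 to 0.56) and Ebf1 (-0.055 to 0.37) for the genotypes under PCN, and Pax5 (-0.14 to 0.35) and Mzb1 (-0.045 to 0.27) for PCN in dMye. The cause was not tested. Upper-quartile scaling shifted the split of all called genes: in FF from 936 lower and 915 higher to 1140 and 704, in dMye from 153 and 126 to 187 and 85, and between genotypes from 1052 and 1869 to 669 and 2117 under DMSO and from 1526 and 2176 to 852 and 2528 under PCN. Depth limits Pax5 and Ly6d most, with as few as 2 and 4 counts in a dMye library.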

Other observations

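Genes tied to B cell subsets gave no single direction. Of 7 tested B-1 cell genes, 3 fell with PCN in FF and 1 rose, beside 936 and 915 of all 13409 tested genes. Spn (CD43) fell by 0.82 ± 0.14 on the log2 scale (edgeR adjusted p = 0.00025), with Tnfrsf13b and Ptpn22. Bhlhe41 rose by 0.39 ± 0.05 (edgeR adjusted p = 2.5e-05) at a mean of 367 CPM over groups. That mean was 15.6 CPM for Tnfrsf13b and 8.98 CPM for Ptpn22. It was 3.23 CPM for Cd79a, the highest of the B cell genes followed above. Which cells these transcripts came from was not tested, so neither the falls nor the rise can be assigned to B-1 cells. Between genotypes under DMSO, 3 of the 7 were lower in dMye, beside 7.85% of all genes. Among them was Fcrl5, lower by 1.74 ± 0.51 (edgeR adjusted p = 0.016). Among the 6 follicular B cell genes, Cxcr5 was lower in dMye by 1.76 ± 0.38 (0.0016), whereas Cd55 was higher by 0.82 ± 0.21 (0.0062). Of 6 tested plasma cell genes, Prdm1 and Irf4 fell with PCN in FF, by 1.18 ± 0.20 and 0.75 ± 0.20, beside 6.98% of all genes called lower. Both are also known in macrophages.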
